A study of Mus musculus with 26 samples.

Results

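The genes described here are 34 chaperone and heat shock genes of the mouse, chosen by name. They encode the 8 subunits of the cytosolic chaperonin (Tcp1, Cct2, Cct3, Cct4, Cct5, Cct6a, Cct7 and Cct8), members of the HSP70 and HSP90 families with their cochaperones, small heat shock proteins, mitochondrial chaperones and 2 heat shock factors. Of the 34 genes, 33 had counts among the 45318 genes of the count tables and 32 were among the 15023 genes tested. Hspa14 was not analysed here, and Hspa1a had too few counts to be tested. Their RNA was measured in 4T1 cells, a triple-negative mammary carcinoma line from a BALB/c mouse, by sequencing polyadenylated RNA. Control cells (2 libraries) were labelled wild type and carried a guide RNA against Renilla luciferase, a gene that mouse cells lack. MaTAR25 KO1 (3 libraries) and KO2 (4 libraries) were labelled MaTAR25-/- and were clones grown from single cells after CRISPR/Cas9 and a pair of guides had removed the region around the start site of MaTAR25, a nuclear long noncoding RNA. Each knockout was thus 1 clone. By the paper's methods, control cells were also grown as clones from single cells. The labels do not say which clone or clones the control libraries came from. A difference between clones therefore cannot be told apart from the knockout in the comparisons with control. The labels give no separate cultures, and p-values measure only the spread between these libraries, which may be technical. ChIRP-seq peak lists, which give chromatin sites recovered with oligonucleotides against MaTAR25, were set beside the expression values.

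Chaperones bind unfolded or partly folded proteins and keep them from aggregating. HSP70 proteins take up short hydrophobic stretches in a cycle of ATP binding and hydrolysis, which J proteins (DNAJ) start and nucleotide exchange factors such as Hsph1 and Bag3 end. HSP90 acts later, on kinases and steroid receptors among others, and the chaperonin TRiC, a double ring of the CCT subunits, folds actin and tubulin. Many of these genes are transcribed at all times, while others are switched on by heat shock factor 1 (Hsf1), which binds alternating GAA and TTC units, the heat shock elements, in their promoters. Tumor cells commonly hold high levels of chaperones.

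Promoter sequences of RefSeq (GRCm38.p6, 250 bases before to 50 after a start site) were at hand for 27 of the 34 genes and were searched for the pair of units GAANNTTC or TTCNNGAA. Each of these words is its own reverse complement, so 1 search covers both strands. At least 1 pair stood in a window of 16 of the 27 genes (59.3%) and of 4587 of all 27025 genes with a window (17.0%). Of 9 members that heat usually induces, 8 had a window and 7 of them held a pair, and of 14 members usually held constant, 10 had a window and 4 held one. Alternating runs of 3 units (GAANNTTCNNGAA or TTCNNGAANNTTC, each the reverse complement of the other), which contain overlapping pairs, were found for Hspd1, Hspe1, Hsph1 and Chordc1, 4 of the 27 members (14.8%), and for 179 of all 27025 genes (0.662%). These words are a description of the windows and not evidence of binding. The following stretches show the pairs that lay wholly before the start site in members called between KO and control cells or between the clones, and in Hspa1a for its likeness to Hspa1b. Each has 30 bases from 5′ to 3′ on the strand of the gene, with the pairs in capitals.
Hspa1b (chr17:34959324-34959353, minus strand): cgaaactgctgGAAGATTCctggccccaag
Hspa1a (chr17:34972242-34972271, minus strand): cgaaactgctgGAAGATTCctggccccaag
Hsph1 (chr5:149636351-149636380, minus strand): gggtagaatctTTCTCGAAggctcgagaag
Hspe1 (chr1:55088053-55088082, plus strand): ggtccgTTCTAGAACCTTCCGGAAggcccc
Hspb1 (chr5:135887801-135887830, plus strand): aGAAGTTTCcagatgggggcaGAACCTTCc
Cct5 (chr15:31601862-31601891, minus strand): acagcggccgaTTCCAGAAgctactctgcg
Cct2 (chr10:117063399-117063428, minus strand): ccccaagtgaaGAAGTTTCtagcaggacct
Cdc37 (chr9:21150086-21150115, minus strand): tcggcgggaacTTCCAGAAggcctcaccac
Fkbp4 (chr6:128438789-128438818, minus strand): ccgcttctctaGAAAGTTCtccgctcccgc
The stretches of Hspa1a and Hspa1b are the same, and 247 of the 250 bases before their start sites are identical. The Hspe1 stretch holds 3 overlapping pairs and is also the promoter of Hspd1, which is transcribed from the opposite strand. In Hspb1 both pairs lie within the stretch. The 3 units of Hsph1 lay after its RefSeq start site and are not shown, and its pair before that site is. Of the members called between KO and control cells, 11 had a window and 8 of these held a pair, against 7 of the 14 tested members with a window that were not called.

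Between 25367211 and 61110585 reads per library were assigned to genes. The deleted gene was low in the libraries labelled KO: MaTAR25, listed as 1200007C13Rik, was at 0.768 and 0.915 in control, 0.0319, 0.232 and 0 in KO1 and 0.307, 0.0421, 0.204 and 0.123 in KO2 libraries in CPM (counts scaled to a common library size by TMM, as are all CPM given here). The epithelial markers, 7 of 8 of which were detected (Krt5 was at 0 in all libraries), summed to 4586 to 4726 CPM in control, 4091 to 5476 in KO1 and 1985 to 3341 in KO2 libraries. The KO2 sums were thus below the others, but the markers did not move together. Cldn4 was at 1413 and 1407 CPM in control and 230, 403, 449 and 481 in KO2 libraries. Krt8 was at 452 and 412 CPM in control and 769, 411, 772 and 524 in KO2 libraries. Epcam in KO2 replicate 3, at 488 CPM, was above both controls (460 and 485). The part of this in the results was not tested. The 6 fibroblast markers summed to 20.3 to 25.9 CPM in control, 21.6 to 40.6 in KO1 and 11.8 to 47.6 in KO2 libraries, most of it Pdgfra, with Col3a1, Dcn and Lum at 0 in all libraries, and the 3 endothelial markers summed to at most 1.56 CPM in any library. The 5 leukocyte markers summed to 3.20 to 4.24 CPM in control, 11.5 to 28.5 in KO1 and 1.90 to 20.4 in KO2 libraries, nearly all of it Cd68, with the other 4 at or below 1 CPM in every library. In the deposited file of KO2 replicate 2 each gene is listed 3 times with the same count, and it was used once.

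Chaperone genes were more often higher than lower in KO cells. With the 7 KO libraries as 1 group, 13 of the 32 tested members rose (40.6%) and 1 fell (3.13%) at an adjusted p below 0.1 (edgeR's quasi-likelihood test), where 11.9% of all genes tested rose and 10.7% fell (22.6% in either direction). The median log2 fold change was 0.49 over the members and 0.06 over all genes tested. In bulk RNA, a larger share of cells with a transcript and more of it per cell cannot be told apart. The largest rises were those of Hsph1, Hspa1b, Hspa8, Cct5 and Stip1, and the gene that fell was Hspb1. No overlap between the 7 KO libraries and the controls was seen in 18 of the 32 members, with all KO libraries above control in 16 and below in 2 (Hspb1 and Hspb8), where 34.4% of all genes tested had no overlap. The calls rested on both control libraries: without control replicate 1 only Cct5 and Hspa8 were called (2 members, where 2.95% of all genes were called), and without control replicate 2 only Hspa8 (1 member, against 3.61% of all genes), so that the members' share was then near that of all genes. The called genes kept their direction.

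Both clones showed this direction when set against the same controls in a fit with 3 groups. In KO1, 18 of 32 members rose (56.2%) and 1 fell (3.13%), where 15.9% of all genes rose and 15.7% fell (31.6% in all). In KO2, 12 rose (37.5%) and 2 fell (6.25%), where 16.5% of all genes rose and 15.0% fell (31.4% in all). The median over the members was 0.62 for KO1 and 0.33 for KO2 on the log2 scale, and that of all genes was 0.02 and 0.03. The clones share their controls, so their calls are not independent of each other. Called in both clones were 12 members, all 12 in the same direction, 7 were called in KO1 and not in KO2, 2 in KO2 and not in KO1, and 11 in neither. Some of the 12 rested on weak calls. Of 15 alternatives fitted at this threshold, Bag3 in KO2 kept its call in 5, and Hspe1 in KO2 and Cct2 in KO1 in 9. Hspa8 and Cct5 kept theirs in all 15 in both clones. Without control replicate 1 or 2, 6 and 7 members were called in KO1, where 9.46 and 11.1% of all genes were called, and 5 and 5 in KO2, against 8.72 and 9.15%.

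**Figure D1:**
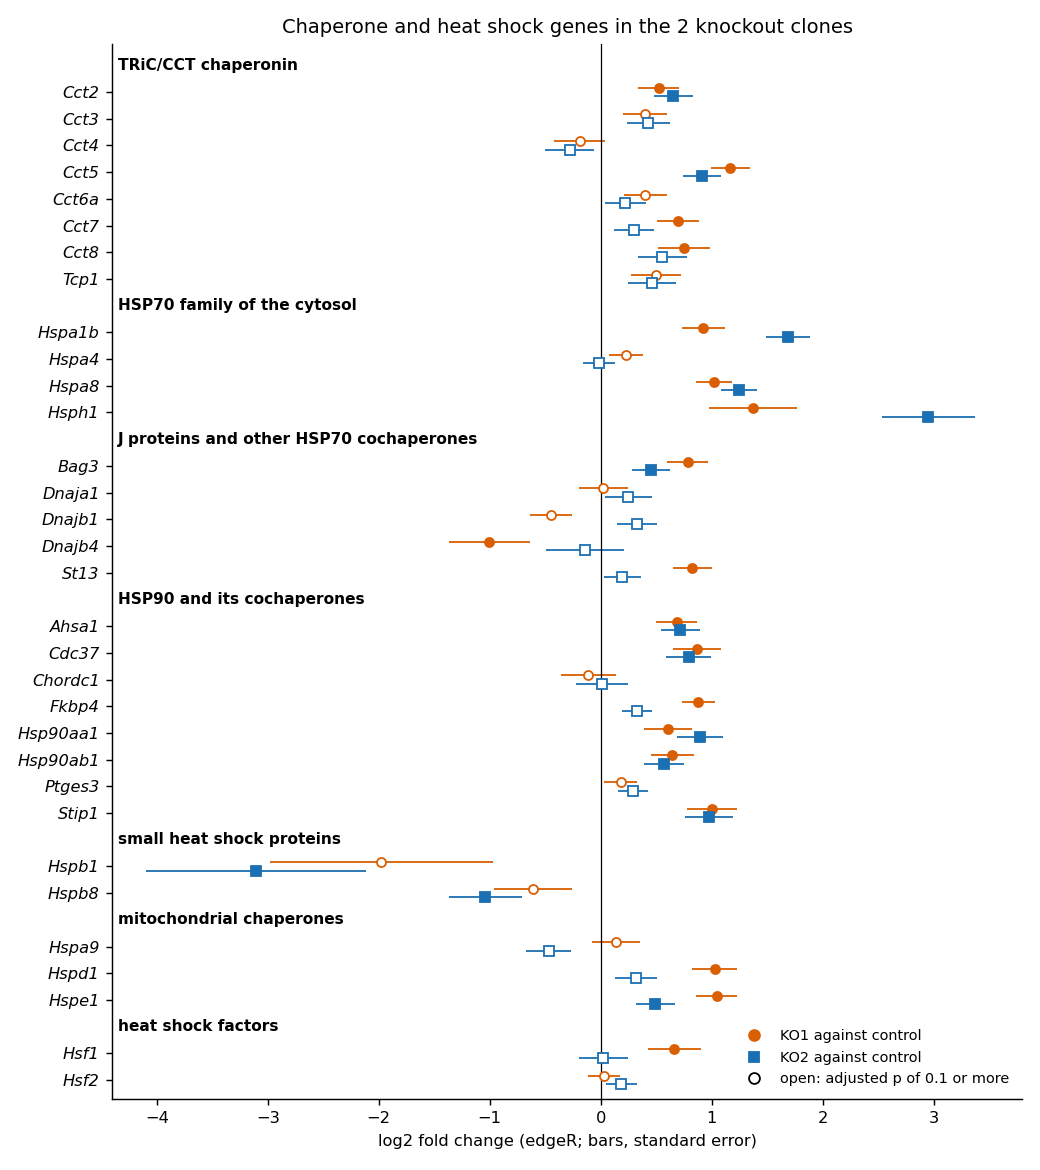
Log2 fold change against control (x axis, edgeR, bars are standard errors) of the 32 tested members, by role, in KO1 (circles) and KO2 (squares), filled where the adjusted p is below 0.1. Most points lie to the right of 0, Hsph1 in KO2 is farthest right at 2.95, and the small heat shock protein genes Hspb1 and Hspb8 lie to the left in both clones.

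Of the cytosolic HSP70 family, Hspa8, Hsph1 and Hspa1b rose in KO cells and Hspa4 was not called. Hspa8, the constitutive HSP70 of the cytosol (ENSMUSG00000015656.13, chr9:40800984-40810087, plus strand), was at 644 and 566 in control, 1153, 1227 and 1302 in KO1 and 1459.7, 1666, 1406 and 1202 in KO2 libraries (CPM). The lowest KO library was far above the higher control library, and the groups did not overlap. Of the 31-base stretches in its exons, 42.3% are found elsewhere in the genome, and reads that matched several places were not assigned to genes. The difference on the log2 scale was 1.15 (standard error 0.17, adjusted p = 0.00327) in KO against control, 1.02 for KO1 and 1.24 for KO2, and it was called in all 3 comparisons with control under each of the 15 alternatives fitted at this threshold.

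Hsph1, an HSP110 protein that exchanges nucleotides on HSP70 (ENSMUSG00000029657.12, chr5:149614287-149636376, minus strand), rose most. It was at 91.4 and 71.1 in control, 229.6, 176 and 225 in KO1 and 425, 1107, 536 and 449 in KO2 libraries (CPM), so KO1 stood between control and KO2 with no overlap. Means were 81.2 ± 14.4 CPM (SD, n = 2) in control, 210.5 ± 29.6 (SD, n = 3) in KO1 and 629 ± 322 (SD, n = 4) in KO2. The log2 fold change was 2.47 (standard error 0.70, adjusted p = 0.0412) for all KO libraries, 1.37 (standard error 0.40, adjusted p = 0.0345) in KO1 and 2.95 (standard error 0.42, adjusted p = 0.00232) in KO2. KO2 replicate 2 held over double the level of the other KO2 libraries, and without it the value for all KO libraries was 2.06.

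Hspa1b, the stress-inducible HSP70 (ENSMUSG00000090877.3, chr17:34956436-34959238, minus strand), was at 11.9 and 14.0 in control, 24.5, 21.9 and 27.4 in KO1 and 41.2, 40.1, 48.5 and 36.9 in KO2 libraries (CPM). The 3 groups did not overlap, with KO2 highest and control lowest. Its log2 fold change was 1.41 (standard error 0.33, adjusted p = 0.0190) in KO, 0.93 in KO1 and 1.69 in KO2. Hspa1a, its neighbour on chromosome 17 and nearly its copy, had only 2 and 3 in control, 8, 1 and 6 in KO1 and 6, 6, 5 and 14 in KO2 libraries (counts), with KO2 above control and KO1 on both sides of it. Of the 31-base stretches in Hspa1a exons, 63.8% also stand in Hspa1b exons, and reads that matched several places (24.1 to 27.5% of all reads in the tables) were not assigned to genes, so both counts leave out shared sequence and the levels of the pair are uncertain. Reads also cannot be told apart between Hspa1a and Gm20481, which overlaps it on the opposite strand, because no strand is stated for the counting. Hspa4, another HSP110 protein, was at 566 and 501 in control, 641, 609 and 625 in KO1 and 497, 525, 622 and 464 in KO2 libraries (CPM), with KO1 above control, KO2 overlapping it and a log2 difference of 0.09 (standard error 0.16, adjusted p = 0.728) for all KO libraries.

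Within a library, the counts of Hspa1a and Hspa1b together came to 2.17 ± 0.450% of those of Hspa8 in control (SD, n = 2), 2.01 ± 0.198% in KO1 (SD, n = 3) and 2.95 ± 0.434% in KO2 (SD, n = 4). On the log2 scale KO cells exceeded control by 0.21 (two-sided exact permutation test, p = 0.556), and 2 against 7 libraries cannot give a p below 0.0556. The difference was -0.00271 without control replicate 1 and 0.42 without control replicate 2. KO1 was -0.10 from control and KO2 0.44. All 3 genes have exon stretches found elsewhere in the genome (65.4% for Hspa1a, 68.5% for Hspa1b and 42.3% for Hspa8), so the percentages are uncertain.

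**Figure D2:**
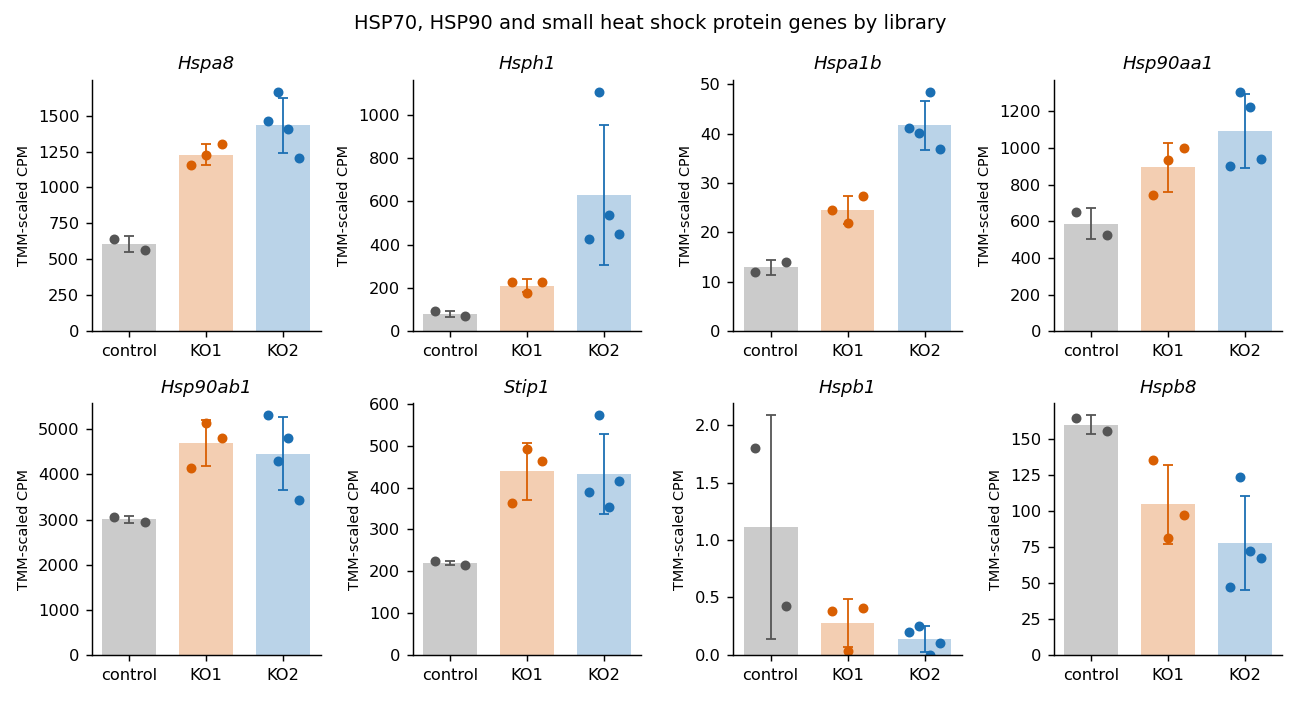
CPM (y axis, TMM-scaled, from 0) of 8 members in control, KO1 and KO2 libraries (points), with the mean (bars) and SD (error bars). Hspa8, Hsph1, Hspa1b, Hsp90aa1, Hsp90ab1 and Stip1 are higher in all KO than in both control libraries, and Hspb1 and Hspb8 are lower.

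HSP90 and its cochaperones rose in 5 of 8 genes in KO cells, and the other 3 were not called. Hsp90ab1, the constitutive HSP90 (ENSMUSG00000023944.11, chr17:45567775-45573271, minus strand), had the highest level per length of all members, 1001 ± 28.7 CPM per kb of exon in control cells (SD, n = 2). It was at 3062 and 2940.1 in control, 4136, 5146 and 4795 in KO1 and 5307, 4288, 4811 and 3425 in KO2 libraries (CPM), with no overlap, though KO2 replicate 4 lay close to control. Its log2 fold change was 0.60 (standard error 0.17, adjusted p = 0.0378). Hsp90aa1, the inducible HSP90 (ENSMUSG00000021270.10, chr12:110690605-110702728, minus strand), was at 648 and 527 in control, 745, 933 and 1001 in KO1 and 902, 1306, 1223 and 938 in KO2 libraries (CPM), again with all KO libraries above control. Its log2 fold change was 0.78 (standard error 0.22, adjusted p = 0.0368) in KO, 0.60 in KO1 and 0.89 in KO2. Much of its exon sequence (62.5% of 31-base stretches) is found elsewhere in the genome, against 19.2% for Hsp90ab1.

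Within a library, the HSP90 genes were also compared with each other. Hsp90aa1 counts were 19.5 ± 2.28% of Hsp90ab1 counts in control (SD, n = 2), 19.0 ± 1.61% in KO1 (SD, n = 3) and 25.1 ± 5.77% in KO2 (SD, n = 4). The log2 ratio was 0.17 higher in KO cells (two-sided exact permutation test, p = 0.667, smallest possible p 0.0556). Without control replicate 1 or 2 this value was 0.29 and 0.05.

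Among the cochaperones, Stip1, which joins HSP70 to HSP90 (ENSMUSG00000024966.8, chr19:7020702-7039967, minus strand), was at 223 and 216 in control, 363, 493 and 463 in KO1 and 389, 573, 354 and 416 in KO2 libraries (CPM). All KO libraries exceeded both controls, and the log2 fold change was 0.99 (standard error 0.20, adjusted p = 0.0118). Cdc37, which brings kinases to HSP90 (ENSMUSG00000019471.9, chr9:21133222-21149982, minus strand), was at 214 and 222 in control, 364, 409 and 418 in KO1 and 392, 478, 275 and 364 in KO2 libraries (CPM). It too showed no overlap, with a log2 difference of 0.82 (standard error 0.19, adjusted p = 0.0192). Ahsa1, which speeds up the ATPase of HSP90 (ENSMUSG00000021037.6, chr12:87266479-87273998, plus strand), was at 74.0 and 72.2 in control, 111, 111 and 131 in KO1 and 103, 133, 141 and 103 in KO2 libraries (CPM). Its KO libraries again lay above control, and its log2 fold change was 0.70 (standard error 0.17, adjusted p = 0.0210). Fkbp4, an immunophilin found with steroid receptors, rose in KO1 (log2 fold change 0.88 (standard error 0.14, adjusted p = 0.00376)), with 0.32 (adjusted p = 0.115) in KO2. Ptges3, or p23, which stabilises the closed form of HSP90, had a log2 fold change of 0.24 in KO (adjusted p = 0.256), although its 7 KO libraries, at 137 to 170.5 CPM, lay above the controls at 123 and 134. Chordc1 was at 109 and 112 CPM in control and 85.3 to 151 in KO libraries, with a log2 fold change of -0.04 (adjusted p = 0.920). Its promoter window holds several pairs of heat shock units, all of them across or after the start site.

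Of the 5 J proteins and other HSP70 cochaperones, only Bag3 was called between KO and control cells. Bag3, a nucleotide exchange factor that links HSP70 to small heat shock proteins and autophagy (ENSMUSG00000030847.7, chr7:128523616-128546981, plus strand), was at 46.7 and 48.4 in control, 85.9, 84.4 and 75.1 in KO1 and 56.7, 76.9, 56.5 and 70.0 in KO2 libraries (CPM). Its groups did not overlap, and the log2 fold change was 0.60 (standard error 0.20, adjusted p = 0.0692). St13, the HSP70-binding protein Hip, was at 186 and 179 in control, 258, 363 and 349 in KO1 and 221, 210.4, 219 and 184 in KO2 libraries (CPM), and the KO1 libraries were the highest while KO2 replicate 4 lay within the control range. It rose in KO1 (0.83 (standard error 0.18, adjusted p = 0.0108)). The J proteins did not move together. Dnajb1, the inducible J protein of the HSP70 disaggregase, was at 62.98 and 69.5 in control, 51.0, 41.5 and 53.4 in KO1 and 87.6, 98.3, 68.6 and 78.0 in KO2 libraries (CPM), with KO1 below and KO2 mostly above control, and was not called against control (log2 fold change -0.44 for KO1 with adjusted p = 0.120, and 0.33 for KO2 with adjusted p = 0.225). Dnajb4 was at 33.9 and 48.4 in control, 24.6, 19.2 and 17.7 in KO1 and 23.5, 40.0, 26.9 and 58.9 in KO2 libraries (CPM) and fell in KO1 (-1.003 (standard error 0.37, adjusted p = 0.0766)), while KO2 gave -0.14 (adjusted p = 0.801) and the clones were not called apart (adjusted p = 0.107). Its controls lay inside the range of KO2, which was wide. Dnaja1 had a log2 fold change of 0.16 in KO (adjusted p = 0.655), with its groups overlapping.

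Of the 8 chaperonin subunit genes, Cct2, Cct5 and Cct8 rose in KO cells, none fell, and 7 of 8 had a log2 fold change above 0 (median 0.48). Cct5, the epsilon subunit (ENSMUSG00000022234.11, chr15:31590800-31601804, minus strand), was at 518 and 475 in control, 1037, 1069 and 1237 in KO1 and 945, 983, 1056 and 752 in KO2 libraries (CPM). Its KO libraries lay well above control, and the log2 fold change was 1.03 (standard error 0.18, adjusted p = 0.00631), 1.17 in KO1 and 0.91 in KO2. Cct2, the beta subunit (ENSMUSG00000034024.7, chr10:117051001-117063814, minus strand), was at 725 and 708 in control, 889.9, 1014 and 1184 in KO1 and 966, 1126, 1374 and 1047 in KO2 libraries (CPM), with no overlap and a log2 difference of 0.60 (standard error 0.17, adjusted p = 0.0401). Cct8, the theta subunit (ENSMUSG00000025613.10, chr16:87483326-87495873, minus strand), was at 338 and 307 in control, 462, 504 and 658 in KO1 and 501, 598, 442 and 354 in KO2 libraries (CPM). KO2 replicate 4 lay just above control, and the log2 fold change was 0.64 (standard error 0.22, adjusted p = 0.0758). Cct7 rose in KO1 (0.70 (standard error 0.19, adjusted p = 0.0300)) and had 0.30 in KO2 (adjusted p = 0.263), a difference between the clones of -0.40 that was not called (adjusted p = 0.131). Tcp1, Cct3 and Cct6a had values between 0.30 and 0.48 for all KO libraries and passed no test. Cct4 alone was below 0, at -0.24 (adjusted p = 0.451), with 603 and 545 in control, 412, 561 and 537 in KO1 and 431, 368, 642 and 450.0 in KO2 libraries (CPM). Several exons of Tcp1, Cct6a, Cct7 and Cct8 overlap genes on the opposite strand (2.80 to 12.5% of exon bases for each such gene), and reads there cannot be assigned to a strand.

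The subunits stand in equal number in the ring, while the levels measured for their RNA differed, by an amount that depends on the exon length used. In CPM, control means ran from 322 for Cct8 to 716 for Cct2. Per kb of exon (union of the exons in GENCODE vM21), control levels ran from 57.1 ± 1.34 CPM for Cct7 to 280.2 ± 4.51 for Cct2 (SD, n = 2). The exon unions measure 6778 bases for Cct7 and 2557 for Cct2, so this range and order hold only for these lengths. Neighbours in the order Cct2, Cct5, Cct6a, Cct4, Cct8, Tcp1, Cct3 and Cct7 whose means ± SD overlapped in control were Cct6a with Cct4, and Tcp1 with Cct3. Per kb, the highest subunit exceeded the lowest 4.88- and 4.93-fold in control, 4.46- to 4.74-fold in KO1 and 5.23- to 7.68-fold in KO2 libraries. Summed over the 8 subunits, the level was 1075 and 1010 CPM per kb in control, 1447 to 1746 in KO1 and 1228 to 1655 in KO2, so all KO sums were above both controls.

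**Figure D3:**
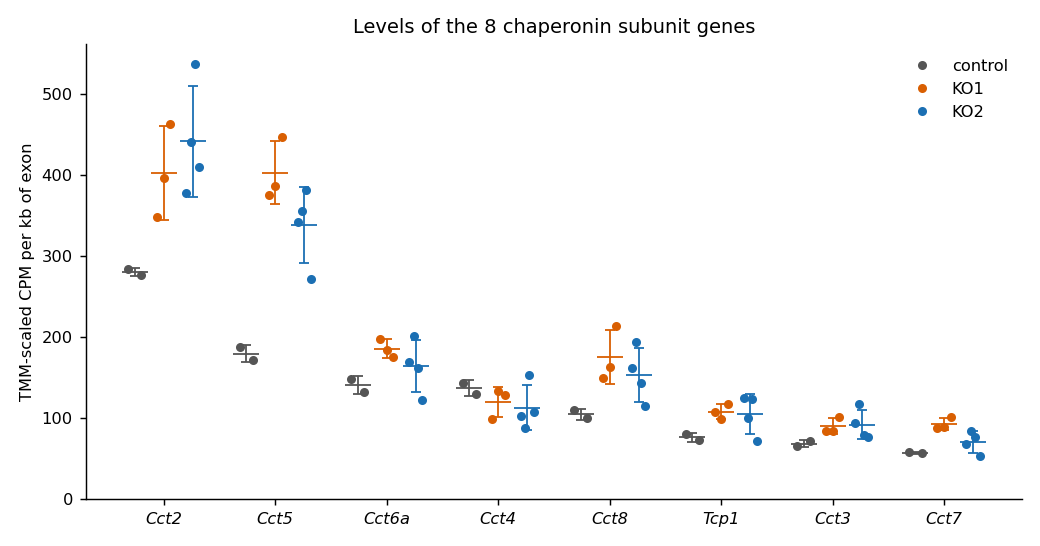
Level (y axis, TMM-scaled CPM per kb of exon) of the 8 chaperonin subunit genes in control, KO1 and KO2 libraries (points), with the mean (dash) and SD (bars). On this scale Cct2 and Cct5 are highest and have the widest gaps between KO and control means. As log2 fold change in KO against control, Cct8 (0.64) rises more than Cct2 (0.60). Cct4 is the one subunit whose KO means are not above control.

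Small heat shock proteins are holdases that need no ATP. Hspb1 fell in KO cells and in KO2, Hspb8 fell in KO2, and neither was called in KO1. Of the same family but not among the 34 genes, Hspb6 rose in KO cells (1.33 (standard error 0.45, adjusted p = 0.0753)) and Cryab was at -0.05 (adjusted p = 0.929). Hspb1, or HSP25, was barely expressed (ENSMUSG00000004951.10, chr5:135887919-135889563, plus strand), with 82 and 14 in control, 24, 1 and 15 in KO1 and 7, 6, 0 and 5 in KO2 libraries (counts, where a 0 allows up to 3). Both control libraries were above all KO libraries in CPM, but the controls themselves differed several-fold. Its log2 fold change was -2.49 (standard error 0.91, adjusted p = 0.0941) in KO and -3.11 (standard error 0.99, adjusted p = 0.0499) in KO2, while KO1 gave -1.98 (standard error 1.01, adjusted p = 0.184). Without control replicate 1 the value for all KO libraries was -1.09 (adjusted p = 0.730), and 65.0% of the 31-base stretches of its exons are found elsewhere in the genome. Hspb8, which works with Bag3, was at 165 and 156 in control, 135, 81.4 and 97.6 in KO1 and 47.5, 124, 72.6 and 67.6 in KO2 libraries (CPM). All KO libraries were below control, and it fell in KO2 (-1.04 (standard error 0.33, adjusted p = 0.0468)), with -0.61 in KO1 (adjusted p = 0.235) and -0.84 for all KO libraries (adjusted p = 0.107).

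The mitochondrial chaperones set the clones apart. Hspd1 (HSP60, ENSMUSG00000025980.11, chr1:55077835-55088243, minus strand) and Hspe1 (HSP10, ENSMUSG00000073676.4, chr1:55088132-55091307, plus strand) form the chaperonin of the matrix and share the promoter shown above. Hspd1 was at 579 and 489.8 in control, 906, 1139 and 1223 in KO1 and 679, 713, 752 and 515 in KO2 libraries (CPM), so KO1 was far above control and KO2 overlapped it. Hspe1 was at 69.7 and 60.4 in control, 113, 132 and 159 in KO1 and 99.8, 93.2, 93.6 and 79.7 in KO2 libraries (CPM), with KO1 highest, KO2 between and no overlap. In KO1 both rose, Hspd1 by 1.03 (standard error 0.20, adjusted p = 0.00828) and Hspe1 by 1.05 (standard error 0.19, adjusted p = 0.00524) on the log2 scale. In KO2 Hspe1 rose by 0.49 (standard error 0.17, adjusted p = 0.0706) and Hspd1 was not called, with 0.31 (standard error 0.19, adjusted p = 0.259). The genes overlap by 112 exon bases on opposite strands (4.24% of Hspd1 and 7.60% of Hspe1 exon bases), and 65.7% of Hspd1 stretches recur in the genome. Hspa9, mortalin, the HSP70 of mitochondria, was at 1078 and 1033 in control, 1362, 1100.5 and 1019 in KO1 and 672, 1016, 713 and 645 in KO2 libraries (CPM), with KO2 libraries below both control libraries and KO1 around them. It was not called against control in KO1 (0.14, adjusted p = 0.682) or KO2 (-0.47, adjusted p = 0.121).

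Of the heat shock factors, only Hsf1 was called, in KO1 and between the clones. Hsf1, which drives the heat shock response, was at 55.1 and 54.9 in control, 70.6, 81.8 and 109 in KO1 and 64.7, 58.5, 59.2 and 41.0 in KO2 libraries (CPM), with KO1 above control and KO2 on both sides of it. It rose in KO1 (0.66 (standard error 0.24, adjusted p = 0.0736)) and stood at 0.02 in KO2 (adjusted p = 0.955). Hsf2 was at 42.2 and 45.2 CPM in control and 41.6 to 50.2 in KO libraries, and was called in no comparison.

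The members that heat usually induces did not move as 1 group. Of 8 tested, Hsph1, Hspa1b, Hsp90aa1 and Bag3 rose in KO cells, Hspb1 fell, and Dnajb1, Dnajb4 and Chordc1 were not called, and the median difference was 0.32 on the log2 scale, with a range from -2.49 to 2.47. Of the 14 members usually held constant, 6 rose, none fell and 13 were above 0, with a median of 0.49 and a range from -0.24 to 1.15. The share that rose was thus 4 of 8 against 6 of 14, beside 11.9% of all genes. The 14 were the 8 chaperonin subunits, Hspa8, Hspa4, Hsp90ab1, Cdc37, St13 and Ptges3. The remaining members, Hspd1 and Hspe1 among them, were placed in neither class, so these shares hold only for the members listed.

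The clones differed from each other in 9 of the 32 members, 3 higher and 6 lower in KO2 than in KO1 (9.38 and 18.8%), where 10.2% of all genes were higher and 9.43% lower (19.6% in all). Higher in KO2 were Hsph1 (log2 fold change 1.58 (standard error 0.33, adjusted p = 0.0197)), Hspa1b (0.76 (standard error 0.16, adjusted p = 0.0208)) and Dnajb1 (0.77 (standard error 0.16, adjusted p = 0.0201)). These 3 were the only ones called of the 8 tested members that heat usually induces. Of those 8, 6 were above 0 and Bag3 (-0.33) and Hspb1 (-1.13) were below. The KO2 libraries of the 3 called genes lay above all KO1 libraries. No overlap between the clones was seen in 11 of the 32 members and in 3681 of all 15023 genes tested. Lower in KO2 were the 3 mitochondrial members Hspd1 (-0.71 (standard error 0.16, adjusted p = 0.0263)), Hspa9 (-0.61 (standard error 0.18, adjusted p = 0.0573)) and Hspe1 (-0.55 (standard error 0.15, adjusted p = 0.0445)), and also St13 (-0.63 (standard error 0.14, adjusted p = 0.0251)), Fkbp4 (-0.56 (standard error 0.12, adjusted p = 0.0200)) and Hsf1 (-0.64 (standard error 0.19, adjusted p = 0.0633)). The Fkbp4 libraries were at 241 and 227 in control, 405, 431 and 455 in KO1 and 331, 278, 294 and 268 in KO2 libraries (CPM), with KO2 between control and KO1. None of the 8 chaperonin subunits was called between the clones. Without KO1 replicate 2, only Hsph1 and Fkbp4 were called (2 members, 6.25%), where 5.79% of all genes were called.

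**Figure D4:**
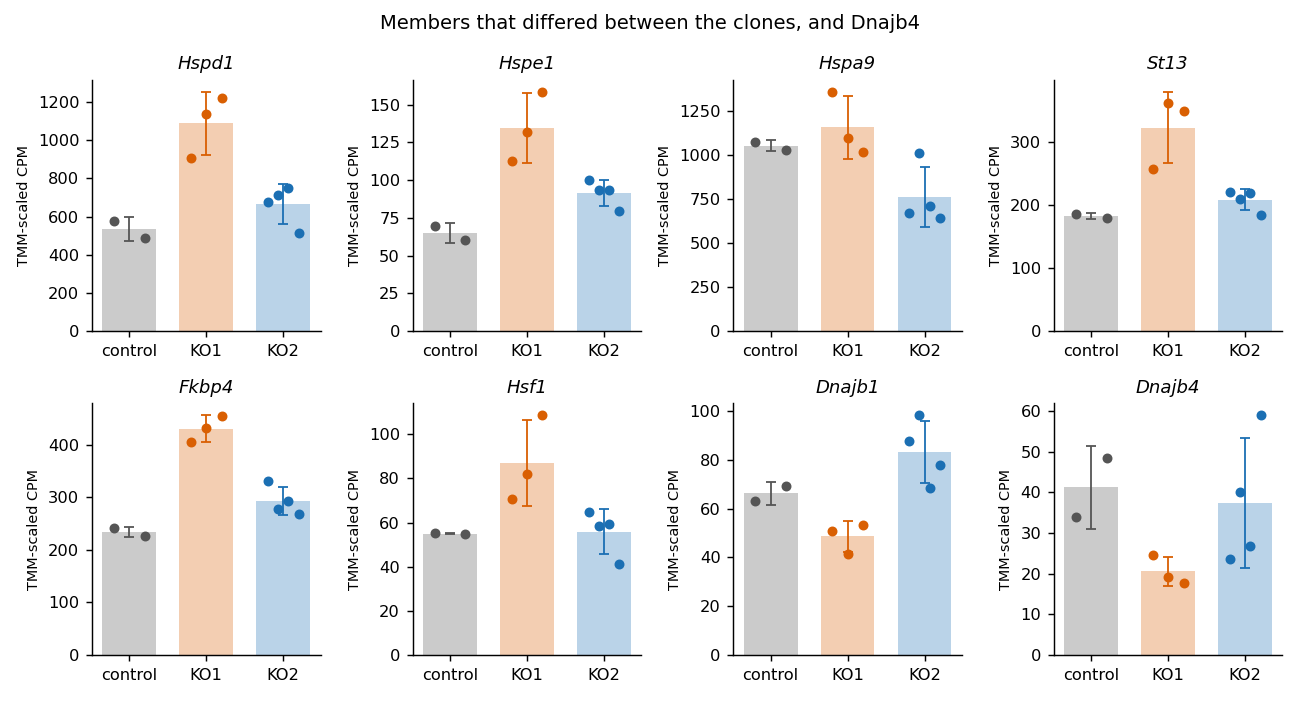
CPM (y axis, TMM-scaled, from 0) in control, KO1 and KO2 libraries (points), with the mean (bars) and SD (error bars), of the members that differed between the clones beside Hsph1 and Hspa1b, and of Dnajb4. Hspd1, Hspe1, St13, Fkbp4 and Hsf1 are highest in KO1, Dnajb1 is highest in KO2, and Hspa9 is lowest in KO2.

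The wider protein folding pathway was read from 61 further genes (prefoldins, other HSP70, J and small heat shock proteins, BAG proteins, further HSP90 cochaperones, and mitochondrial chaperones and proteases), all of them tested. In KO cells 14 rose and 7 fell, 16 and 8 in KO1, and 16 and 10 in KO2, with medians of 0.22, 0.14 and 0.19 on the log2 scale. In percent, these were 23.0 and 11.5 in KO cells (11.9 and 10.7 of all genes), 26.2 and 13.1 in KO1 (15.9 and 15.7 of all genes) and 26.2 and 16.4 in KO2 (16.5 and 15.0 of all genes), so the shares that fell were near those of all genes. The largest rises were those of Pfdn6, a subunit of prefoldin, which hands actin and tubulin to TRiC (1.39 (standard error 0.28, adjusted p = 0.0110), from 18.5 ± 1.06 CPM in control, SD, n = 2, to 48.4 ± 10.9 in KO, SD, n = 7), of Hspb6 (1.33 (standard error 0.45, adjusted p = 0.0753)) and of Ppp5c, a phosphatase that acts with HSP90 (1.08 (standard error 0.16, adjusted p = 0.00327)). The largest falls were those of Hsf4 (-2.39 (standard error 0.62, adjusted p = 0.0282), at 1.39 ± 0.0600 CPM in control, SD, n = 2), Hspb11 (-0.85 (standard error 0.24, adjusted p = 0.0372)) and Lonp1, the protease of the mitochondrial matrix (-0.73 (standard error 0.13, adjusted p = 0.00726)). Between the clones, 6 were higher and 8 lower in KO2 (9.84 and 13.1%, against 10.2 and 9.43% of all genes). Highest of them were Hspa12a (1.86 (standard error 0.64, adjusted p = 0.0884)), Hspa4l, an HSP110 protein like Hsph1 (1.61 (standard error 0.35, adjusted p = 0.0216)), and Dnajb5 (1.39 (standard error 0.38, adjusted p = 0.0461)), and lowest were Pfdn5 (-1.36 (standard error 0.31, adjusted p = 0.0256)), Clpb (-1.02 (standard error 0.19, adjusted p = 0.0132)) and Hscb (-1.02 (standard error 0.27, adjusted p = 0.0436)), the last a J protein of mitochondria. Hspa12a was barely expressed, and its KO1 libraries (0.0812 to 0.271 CPM) and KO2 libraries (0.211 to 1.39 CPM) overlapped.

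The peak list of the total oligonucleotide pool in 4T1 cells held 76806 peaks, called by the authors over pooled replicates. By the promoter nearest to each peak, 18 of the 33 members had a peak, against 8949 of the 15023 tested genes (59.6%). By this count members carried peaks about as often as other genes, which the stricter counts below did not show. At a peak score of at least 100, 6 of the 33 members remained (Hspa4, Hspa9, Hspa8, Cct7, Hspe1 and Hsph1), a smaller share than the 26.1% of all tested genes. The nearest promoter can be far away. The peak counted for Hspa9 lay at -60539 bases from the start, and that for Hspe1 at 15107. Peaks annotated to the promoter of a transcript were found for 3 of 33 members, against 8.23% of all tested genes. These members were Hsp90ab1 (chr17:45569442-45570073, score 85.6), Dnaja1 (chr4:40723773-40724400, score 53.8) and Dnajb1 (chr8:83608679-83609178, score 52.6). The peaks of Hsp90ab1 and Dnaja1 lay inside the gene, at the start of an internal transcript. The first base of the gene is chr17:45573271 for Hsp90ab1 (minus strand) and chr4:40722150 for Dnaja1 (plus strand). Of these 3 genes, Hsp90ab1 was the one called between KO and control cells. The highest-scoring peak of a member lay between genes, upstream of the start of Hspa4 (chr11:53308311-53309060, score 439.9), a gene that was not called. Near Hspa8, which rose, a peak stood upstream of the start (chr9:40797397-40798306, score 180.5). Counting instead the peaks that overlap the gene itself, 10 of the 33 members had one, a smaller share than the 51.2% of all tested genes. These differences in share were not tested. In the separate lists, 15 members had a peak with the odd pool (52.4% of all tested genes), 19 with the even pool (52.9%) and 21 in MMTV-Neu-NDL cells (58.0%).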

How the data were processed

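The members, the gene lists and the tests were chosen with earlier results of these data known. The deposited counts are whole reads per gene that were not normalized; the authors aligned their single-end libraries (STAR, GRCm38) and assigned reads to the genes of GENCODE vM5 (HTSeq). Reads outside genes (33.9 to 37.0% of each table, mostly reads that matched several places) were left out. For the deposited peaks, whose score is that of HOMER, the authors mapped paired ChIRP-seq reads end to end with Bowtie2, called broad (histone style) peaks on pooled replicates, at least 50-fold over the pulldown of Ppib RNA, and used GENCODE vM16 for their annotation.

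Genes that filterByExpr kept were tested with TMM library sizes and the quasi-likelihood test of edgeR 4.0.16 (R 4.3.3, limma 3.58.1), with Benjamini-Hochberg adjustment over all 15023 genes and the study's threshold of 0.1. KO1, KO2 and their difference came from 1 fit of 3 groups. Ratios used counts plus 1 and a two-sided exact permutation test with 36 arrangements. Members called between KO and control or between the clones were described library by library, and others by counts and ranges; of the 61 further genes, the 3 called with the largest change in each direction were named. Exon stretches of 31 bases were matched to the genome in GRCm38 (Python 3.11.15), gene positions and exon lengths are of GENCODE vM21, and the peaks' nearest promoters were joined to genes by transcript. The scripts were tested on simulated counts. Same-numbered libraries did not deviate together (correlations of -0.15 to 0.04 over 7 pairs, and of -0.12 to 0.15 over 19 other pairs), so replicate numbers were not used as pairs. Alternatives were DESeq2 1.42.0, RLE size factors, other filters and thresholds, a replicate block, other groups in the fit and leaving out each library.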

Additional observations from a re-analysis of the deposited data

Results flagged for a closer look

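Tcp1 stood apart in 1 library: KO2 replicate 4 had 361 CPM, while the other 6 KO libraries had 496 to 626 CPM. On the scale log2(CPM + 1), on which libraries were compared, its gap exceeded Dixon's 95% critical value for 7 samples (ratio 0.579), and in CPM it did not (ratio 0.511). It was 1 of 64 groups of libraries looked at, and chance marks about 1 in 20. In CPM, KO2 replicate 2 passed the critical value for its group size as the highest library for Hsph1, at 1107 CPM (ratio 0.837 of 4 KO2 and 0.614 of 7 KO libraries), and for Dnaja1, at 122 CPM (ratio 0.614 of 7 KO libraries).

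The clones differed by a test of the difference itself (KO2 against KO1, edgeR) in 9 members. Higher in KO2 on the log2 scale were Hsph1 at 1.58 (adjusted p = 0.0197), Dnajb1 at 0.77 (adjusted p = 0.0201) and Hspa1b at 0.76 (adjusted p = 0.0208). Lower in KO2 were Hspd1 at -0.71 (adjusted p = 0.0263), Hsf1 at -0.64 (adjusted p = 0.0633), St13 at -0.63 (adjusted p = 0.0251), Hspa9 at -0.61 (adjusted p = 0.0573), Fkbp4 at -0.56 (adjusted p = 0.0200) and Hspe1 at -0.55 (adjusted p = 0.0445). Dnajb1 was called in neither clone against control and lay on opposite sides of it.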

How the results depend on the processing

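The count of members called between KO and control cells was 14, and it fell to 8 without a filter on low counts and to 7 with the replicate block, 6 of them shared, while the share of all genes called went from 22.6% to 10.4% and 13%. Its range on leaving out 1 library was 1 to 17. That range was 6 to 22 for KO1 against control (19 called), 5 to 18 for KO2 against control (14 called) and 2 to 12 for KO2 against KO1 (9 called), where the replicate block gave 17, 11 and 6 (26.5, 24.6 and 11.6% of all genes, from 31.6, 31.4 and 19.6%). DESeq2 gave 15, 19, 16 and 10 calls (28.1, 33.8, 33.7 and 23.1% of all genes). A fit of 3 groups gave 19 calls between KO and control cells (33.1% of all genes). With only the groups compared in the fit, KO1 against control gave 25 calls (54.1% of all genes). In that setting KO2 against control gave 13 (24.1%) and KO2 against KO1 gave 7 (13.6%). The cause of these shifts was not tested, other than that leaving out a control leaves 1 library in that group, whose spread is then taken from the others. No called member changed its direction under any alternative, but some lost their call. Between KO and control cells, Hspb1 kept its call in 5 of 14 alternatives. Between the clones, Hspa9 kept its call in 9 of 15. Of 1915 estimates of single members, 42 that were called under neither fit changed sign, none larger than 0.18 in size. For the HSP90 ratio, KO1 alone gave -0.04 and KO2 alone 0.33, and for the HSP70 ratio -0.10 and 0.44. None of these permutation tests could reach 0.05. Of the 18 members whose promoter was the nearest to a peak, at any distance, 6 were left at a score of at least 100. When the peak had to overlap the gene, the count was 10. Of the 16 with a pair of heat shock units, 4 had 3 units. With 2 control libraries, small differences between KO and control were not detectable.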
